A study of Arabidopsis thaliana with 2 samples.

Results

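The genes described here encode 9 enzymes and enzyme subunits of the tricarboxylic acid (TCA) cycle of Arabidopsis thaliana. They were chosen by locus name, as citrate synthase CSY4 (AT2G44350), the aconitases ACO1 (AT4G35830) and ACO3 (AT2G05710), the isocitrate dehydrogenase subunit IDH1 (AT4G35260), the E1 subunit of oxoglutarate dehydrogenase (OGDH E1, AT3G55410), the flavoprotein subunit of succinate dehydrogenase SDH1-1 (AT5G66760), fumarase FUM1 (AT2G47510) and the mitochondrial malate dehydrogenases mMDH1 (AT1G53240) and mMDH2 (AT3G15020). The rule picks 10 of the 25392 loci named on the array, and all 10 are among the 19601 loci with signal on both days; 9 of them are reported. Each rests on 1 array feature. The material was suspension cells of the line T87, grown under a light and dark cycle and harvested either 1 day or 8 days after inoculation of fresh medium, with no other treatment and no genetic change named in the labels. Each day has 1 array with 2 channels and 1 biological replicate, so no difference between days has a replicate check and no p-value is given. The array values are ratios, so they give no expression level against which the identity of the cells could be checked.

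The value of a gene is its polysome ratio, the signal of RNA from the heavy part of a sucrose gradient (fractions 1 to 3 of 8) over that of the other channel, given here as a percent or on the log2 scale. The design text names total RNA as the other channel, and the ratio was read in that way. The labels do not settle the direction of the ratio, since they give polysomal RNA in one field and total RNA in another for the same channel. The name of the deposited ratio and the design text both put polysomal RNA on top, which makes this direction likely. With the ratio turned, every change would take the opposite sign and every order of genes would run the other way. On day 1, 73 of 19601 genes (0.372%) lay above 100%, which a share of total RNA cannot exceed, and on day 8 it was 37 genes. The 10 small nucleolar RNAs, which are not translated, had a median of 3.63% on the first array and 2.23% on the second.

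The TCA cycle oxidises acetyl groups from pyruvate in the mitochondrial matrix, and passes the electrons to the respiratory chain. It also supplies carbon skeletons for amino acid synthesis. In plants its enzymes are encoded in the nucleus, translated on cytosolic ribosomes and imported, and several have relatives in the cytosol, plastids or peroxisomes. An mRNA that carries several ribosomes sediments with the polysomes, so the polysome ratio is used as a measure of how much of an mRNA is engaged in translation, apart from its amount in the cell.

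On the deposited scale, the median polysome ratio of the 9 mRNAs was about the same on both days, while that of all genes was lower on day 8. Single members differed in both directions, with log2 changes from -0.92 for FUM1 to 0.74 for mMDH1. The median of the 9 was 38.5% on day 1 and 40.5% on day 8. The median over all genes was 36.0% on day 1 and 24.2% on day 8. As deposited, 6 of the 9 had a higher and 3 a lower ratio on day 8, beside 81.3% of all genes lower and 18.5% higher. The median change of the 9 was 0.06 on the log2 scale, beside -0.52 over all genes. As deposited, no member was past 2-fold in either direction, where 25.7% of all genes were at least 2-fold lower and 1.21% at least 2-fold higher.

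**Figure D1:**
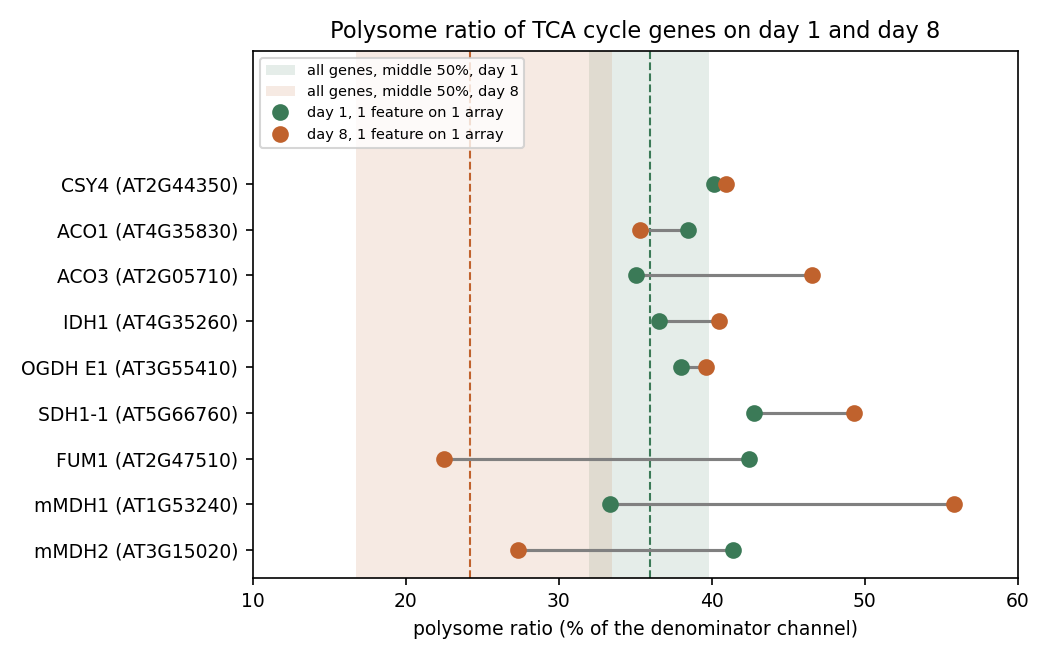
Polysome ratio (horizontal axis, percent of the denominator channel) of the 9 genes on day 1 and day 8, each point 1 feature on 1 array; shaded bands hold the middle 50% of all 19601 genes on each day and dashed lines mark their medians. On day 1 the 9 genes lie between 33.3% and 42.8%, and on day 8 between 22.5% and 55.8%, with 7 of them above the day 8 band.

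The position of 0 between both arrays is open, and it bears on every direction given here. The 10 spike-in probes had a median change of -0.30, with a range from -0.59 to 0.73. With 0 at the median spike-in, 2 members were lower, FUM1 and mMDH2, and 7 higher, beside 63.6% of all genes lower and 36.4% higher. The median change of the 9 was then 0.36, and mMDH1, at 1.04, was past 2-fold. Relative to the median gene, 7 of the 9 lay above it (49.9% of all genes did), and the lowest of these 7 was at percentile 74.5 of all changes. On that scale the median change of the 9 was 0.58, and mMDH1 was again past 2-fold, at 1.27. Differences between genes do not depend on this choice.

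On day 1 the 9 ratios were closely grouped. The highest was 1.28 times the lowest, and the SD between members was 0.12 on the log2 scale. Different probes of the same gene, which should give the same ratio, had a median SD of 0.14 on that day over 541 genes with several probes. From high to low the order was SDH1-1, FUM1, mMDH2, CSY4, ACO1, OGDH E1, IDH1, ACO3 and mMDH1, and none of the 8 steps between neighbours exceeded that probe SD. The widest step, between ACO3 and mMDH1, was 0.07. Above the upper quartile of all genes (39.8%) lay 4 members, SDH1-1, FUM1, mMDH2 and CSY4, and none of the 9 lay below the lower quartile (32.0%).

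On day 8 the ratios were more widely spread, with the highest 2.48 times the lowest and an SD of 0.41 between members, beside a median probe SD of 0.33. The whole array was also more widely spread on day 8, with an SD over all genes of 0.44 on day 1 and 0.79 on day 8. The distance between the quartiles of all genes was 0.32 and 1.00 on the log2 scale, beside 0.18 and 0.40 for the members. The order was then mMDH1, SDH1-1, ACO3, CSY4, IDH1, OGDH E1, ACO1, mMDH2 and FUM1. Of its 8 steps, 1 exceeded the probe SD, that of 0.37 between ACO1 and mMDH2. The first 7 genes of this order lay above the upper quartile of all genes (33.5%), and mMDH2 and FUM1 lay inside the quartiles. The order of day 1 was not kept, but neighbours in that order lay close together. None of its steps exceeded the day 1 probe SD of 0.14, and the SD between members was 0.12 on that day. With 9 genes inside a range of 0.36, small steps follow largely from the range. They cannot show whether the ends of that order, SDH1-1 and mMDH1, differed, and how far the order is resolved was not tested. Over the 9 genes, the ratios of both days had a Spearman rho of -0.43, where rho over all genes was 0.39. These are descriptions across genes that share an array. The gene at the bottom on day 1, mMDH1, was at the top on day 8, and with the ratio turned it would be first on day 1 and last on day 8.

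Citrate synthase makes citrate from oxaloacetate and acetyl-CoA, the entry step of the cycle. CSY4, a mitochondrial form, had a ratio of 40.2% on day 1 and 40.9% on day 8. Its log2 change of 0.03 was the smallest in size of the 9 as deposited, and it lay at percentile 82.7 of all genes. With 0 at the median spike-in it was 0.32, and the smallest was then that of ACO1. Relative to the median gene it was 0.55, and the smallest was that of mMDH2. CSY5, the other mitochondrial form, had 45.7% and 42.3% (log2 change -0.11). The peroxisomal forms, which act in fatty acid respiration, likewise had lower values on day 8. CSY2 had 36.5% and 33.5% (-0.12), and CSY3 had 38.6% and 23.6% (-0.71). A further citrate synthase gene, CSY1, had 43.9% and 31.55% (-0.48).

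Aconitase converts citrate to isocitrate and carries an iron-sulfur cluster. The genes reported here differed in direction as deposited. ACO3 had 35.1% on day 1 and 46.6% on day 8, a log2 change of 0.41 (percentile 94.4 of all changes). ACO1 had 38.5% and 35.3%, a change of -0.12, which was 0.18 with 0 at the median spike-in and 0.40 relative to the median gene. Both thus lay above the median gene. On day 1 ACO1 was the higher by 0.13 on the log2 scale, and on day 8 it was lower than ACO3 by 0.40.

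The change of ACO1 was 0.53 below that of ACO3. Among 620 pairs of different probes for the same gene, 41.9% differed in their change by at least as much. A difference of this size between aconitase genes is therefore within what single probes of 1 gene showed on these arrays.

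NAD-dependent isocitrate dehydrogenase makes oxoglutarate and releases carbon dioxide, as an assembly of catalytic and regulatory subunits. IDH1, a regulatory subunit, had 36.6% on day 1 and 40.5% on day 8, a log2 change of 0.15 (percentile 87.9). The other regulatory subunits had lower ratios on day 8. IDH2 had 34.99% and 16.9% (-1.05), and IDH-III had 37.8% and 28.9% (-0.39). The catalytic subunits stood apart from each other, with 34.7% and 13.2% for IDH-V (-1.39) and 40.6% and 41.2% for IDH-VI (0.02). IDH1 thus had the highest change of 5 measured subunits, but IDH-VI was close to it. Pairs of different probes for the same gene differed in their change by 0.42 at the median. Of the 5, 2 were at least 2-fold lower, beside 25.7% of all genes. The sixth, IDH-IV, had no signal on day 8.

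The oxoglutarate dehydrogenase complex makes succinyl-CoA from oxoglutarate with E1, E2 and E3 subunits. OGDH E1 (AT3G55410) had 38.0% on day 1 and 39.6% on day 8, a log2 change of 0.06 (percentile 84.3). The second E1 gene, AT5G65750, had 39.4% and 47.1% (0.26). Of the E2 genes, annotated as succinyltransferase and oxoacid dehydrogenase family, AT5G55070 had 38.9% and 38.6% (-0.01), and AT4G26910 had 38.4% and 29.2% (-0.39). The lipoamide dehydrogenase mtLPD1, an E3 subunit shared with other mitochondrial complexes, had 42.1% and 51.1% (0.28). For its relative mtLPD2 (-0.57), 2 probes disagreed on both days. One had 37.4% on day 1 and 38.2% on day 8, and the other had 47.6% and 21.1%. Of the 6 genes of the complex, 5 lay above the median gene (49.9% of all genes did) and 3 were higher as deposited (18.5%). In gene span, described further below, 4 of the 6 are in the longest 2 deciles. The change exceeded the median of the same decile in 4 of the 6 (49.1% of all genes).

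Succinyl-CoA ligase follows in the cycle and has no gene among the 9. Its alpha subunit AT5G23250 had 34.7% on day 1 and 18.5% on day 8 (log2 change -0.91). AT2G20420, listed here as its beta subunit, had 38.8% and 27.3% (-0.51). The other alpha gene, AT5G08300, had no signal on day 8.

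Succinate dehydrogenase oxidises succinate to fumarate and is at the same time complex II of the respiratory chain. SDH1-1, its catalytic flavoprotein, had 42.8% on day 1, the highest of the 9, and 49.3% on day 8, with a log2 change of 0.21 (percentile 89.8). SDH1-2, a second gene for the flavoprotein, had 39.7% and 22.4% (-0.82). The change of SDH1-1 was 1.03 above that of SDH1-2, and 21.9% of probe pairs of 1 gene differed by at least as much.

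Across the complex, 10 of 12 measured genes lay below 0 on the deposited scale (81.3% of all genes did), and 3 were at least 2-fold lower, which is near the share of all genes (25.7%). These 3 were genes for the small accessory subunits, with 36.8% and 11.7% for SDH5 (-1.65), 31.4% and 13.9% for the SDH7 gene AT3G47833 (-1.18), and 31.9% and 8.30% for the SDH7 gene AT5G62575 (-1.94). The other accessory subunits had 32.7% and 19.3% for SDH6 (-0.76) and 16.3% and 9.23% for SDH8 (-0.82). The membrane anchor SDH4, printed 10 times, had 34.3% on day 1 and 28.3% on day 8 (-0.28), with an SD between spots of 0.03 on the log2 scale on both days. SDH1-1 and the anchor gene SDH3-2 were the 2 of 12 above 0. The 2 probes of SDH3-2 disagreed in direction, with 36.1% on day 1 and 79.6% on day 8 for one and 47.2% and 42.1% for the other.

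The iron-sulfur subunit SDH2-1 shows how far single probes can differ. Its 3 probes had 30.8%, 35.2% and 34.1% on day 1. On day 8 they had 28.4%, 33.6% and 9.48%. The first pair changed little and the last was much lower, within 1 gene on 1 array. The paralog SDH2-2, with 1 probe, had 34.0% and 21.1%.

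Fumarase adds water to fumarate to give malate. FUM1, the mitochondrial enzyme, had 42.5% on day 1, next to the highest of the 9, and 22.5% on day 8, the lowest. Its log2 change of -0.92 was the lowest of the 9 (percentile 29.4 of all genes), and it was -0.40 relative to the median gene. FUM2, the cytosolic enzyme, had 46.6% and 23.9% (-0.96) on the probe with signal. The changes of both genes differed by 0.04. The other probe of FUM2 had no signal on either day, and the 23.9% of the probe used is, like the 22.5% of FUM1, close to the value of features without signal on day 8 (25.1%, described after the malate dehydrogenases).

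Malate dehydrogenase regenerates oxaloacetate and closes the cycle. The 2 mitochondrial genes had opposite directions as deposited and with 0 at the median spike-in. mMDH1 had 33.3% on day 1 and 55.8% on day 8, the highest of the 9, with a log2 change of 0.74 (percentile 97.7). mMDH2 had 41.4% and 27.4%, with a change of -0.60, which was -0.30 with 0 at the median spike-in and -0.08 relative to the median gene. With features without signal kept, the median gene lay at -0.67 and mMDH2 above it, on the same side as mMDH1. On day 1 mMDH2 was the higher by 0.31 on the log2 scale, and on day 8 mMDH1 was the higher by 1.03. Their changes differed by 1.34, and 12.4% of probe pairs of 1 gene differed by at least that amount. Malate dehydrogenases of other compartments lay between both in their log2 change, though not in every ratio. The cytosolic c-NAD-MDH1 had 35.6% and 31.3% (-0.19), the plastid enzyme MDH (AT3G47520) had 36.8% and 24.8% (-0.57), and the peroxisomal PMDH1 had 42.7% and 34.1% (-0.32).

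FUM1 and mMDH2 were the members whose day 8 ratio lay nearest the value that features without signal take. Both lay below the median gene, mMDH2 by 0.08 and not when features without signal were kept. That value was 53.8% on day 1 and 25.1% on day 8 at the median of 757 negative controls, and features without signal were left out. On the deposited log10 scale, FUM1 lay 0.05 below the local value on day 8 and mMDH2 lay 0.04 above it, both outside the tolerance of 0.006. The nearest of the other 7 members was 0.14 away on that day. Further pathway genes also had day 8 ratios close to the 25.1% of the negative controls. Among them were plastid MDH (24.8%), CSY3 (23.6%), SDH1-2 (22.4%), AT2G20420 (27.3%), and LTA3 (23.6%) and MAB1 (26.1%) of pyruvate dehydrogenase. Their changes carry the same limit. On day 1 every member lay below its local value, and none was closer than 0.09. The nearest then were FUM1 (-0.09), SDH1-1 (-0.10), mMDH2 (-0.11) and CSY4 (-0.11), the same genes that lay above the upper quartile on day 1. That match follows by construction, since every member lay below a local value that varied little (52.1% to 54.6%). A dim feature would be drawn towards the value without signal, which was high on day 1 and lower on day 8. Signals of single channels were not analysed here, so the part of this in the ratios of either day was not tested.

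The 9 genes do not stand for the whole pathway. Of 55 further loci of the cycle, its feeder reactions and its isoforms in other compartments, 54 were on the array and 50 had signal on both days. Of these 50, 38 were lower and 12 higher on day 8 as deposited, which is 76.0% lower beside 81.3% of all genes. The median of the 50 was 38.1% on day 1 and 28.5% on day 8, and their median change of -0.44 was close to that of all genes (-0.52). At least 2-fold lower were 6 of the 50, beside 25.7% of all genes. Of these 6, 3 were subunits of succinate dehydrogenase, 2 were subunits of isocitrate dehydrogenase, and the last was E1 ALPHA of the pyruvate dehydrogenase complex. The 9 and the 50 were both listed by hand with earlier results of these data known, so their difference has no test.

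**Figure D2:**
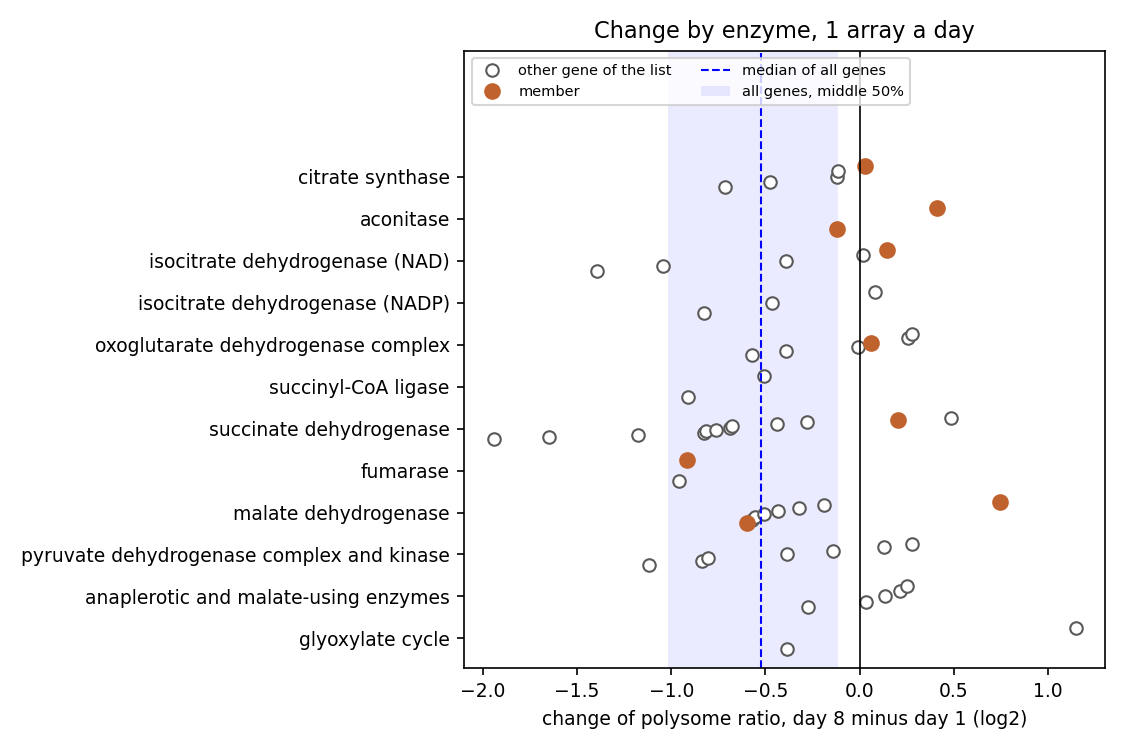
Change of the polysome ratio from day 1 to day 8 (horizontal axis, log2) by enzyme, with filled points for the 9 genes, open points for other genes of each enzyme, a dashed line at the median of all genes (-0.52) and a band over their middle 50%; the vertical offset within an enzyme only separates points. In the isocitrate dehydrogenase (NAD) row the open points run from -1.39 to 0.02, and IDH1 lies at 0.15. In the succinate dehydrogenase row they run from -1.94 to 0.49, and SDH1-1 lies at 0.21.

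Pyruvate dehydrogenase, which makes the acetyl-CoA that enters the cycle, had 5 of 7 genes lower on day 8 as deposited, beside 81.3% of all genes, and 4 of 7 with 0 at the median spike-in, beside 63.6%. The subunit E1 ALPHA had 42.3% and 19.5% (log2 change -1.12), IAR4, a second E1 alpha gene, had 37.4% and 21.4% (-0.81), and MAB1, the E1 beta subunit, had 34.0% and 26.1% (-0.39). Of the E2 genes, AT1G54220 had 35.1% and 42.6% (0.28), LTA3 had 42.1% and 23.6% (-0.84), and AT3G13930 had 36.2% and 32.9% (-0.14). PDK, the kinase that inactivates the complex, had 43.2% and 47.2% (0.13). Enzymes that feed or drain the cycle at malate and oxaloacetate lay higher, with 5 of 5 measured genes above the median gene (49.9% of all genes) and 4 of them above 0 as deposited (18.5%). All 5 are in the longest 2 deciles of gene span, a property that goes with the change over the whole array. Among them, the phosphoenolpyruvate carboxylase PPC1 had 36.6% and 42.6% (0.22), and the mitochondrial malic enzyme NAD-ME1 had 38.5% and 45.8% (0.25).

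The glyoxylate cycle shares citrate synthase and aconitase steps with the TCA cycle and lets plants build sugar from fat. Its enzymes had different values. Malate synthase MLS had 52.2% on day 1 and 116% on day 8, which exceeds 100%, and isocitrate lyase ICL had 29.1% and 22.3%. MLS was the 1 gene of the 50 at least 2-fold higher, beside 1.21% of all genes. Its day 1 ratio was close to the 53.8% of the negative controls on that day. The 22.3% of ICL on day 8 was likewise close to their 25.1%.

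One property that the choice of genes did not use goes with the change over the whole array. Gene span, from the first to the last base of the RefSeq gene model (assembly TAIR10.1, introns included), had a Spearman rho of 0.36 with the change and 0.39 with the day 8 ratio over 19276 protein-coding genes, but 0.13 with the day 1 ratio. Genes were put into 10 deciles by span. In the shortest decile the median was 33.3% on day 1 and 17.6% on day 8, and in the longest it was 36.7% and 35.3%. Most of the genes described here are long. Their spans run from 2230 bases for IDH1 to 5593 for ACO1, and 6 of the 9 fall in the longest 2 deciles. IDH1 is in decile 5 and the malate dehydrogenases are in decile 6, counted from the shortest. Within the 9, the rho of span with change was -0.08.

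The members were also set beside genes of their own span. The change exceeded the median of the same decile in 6 of 9 members, where 49.1% of all genes did so. The malate dehydrogenases share a decile with a median of -0.55, where mMDH1 had 0.74 and mMDH2 -0.60. ACO1, ACO3 and OGDH E1 belong to the longest decile, with a median of -0.04, and of these ACO1 lay below it. FUM1 lay at -0.92 in a decile with a median of -0.26, where CSY4 and SDH1-1 had 0.03 and 0.21. Of the 50 further pathway genes, 23 exceeded the median of their decile. The part of gene length in these values was not tested further.

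**Figure D3:**
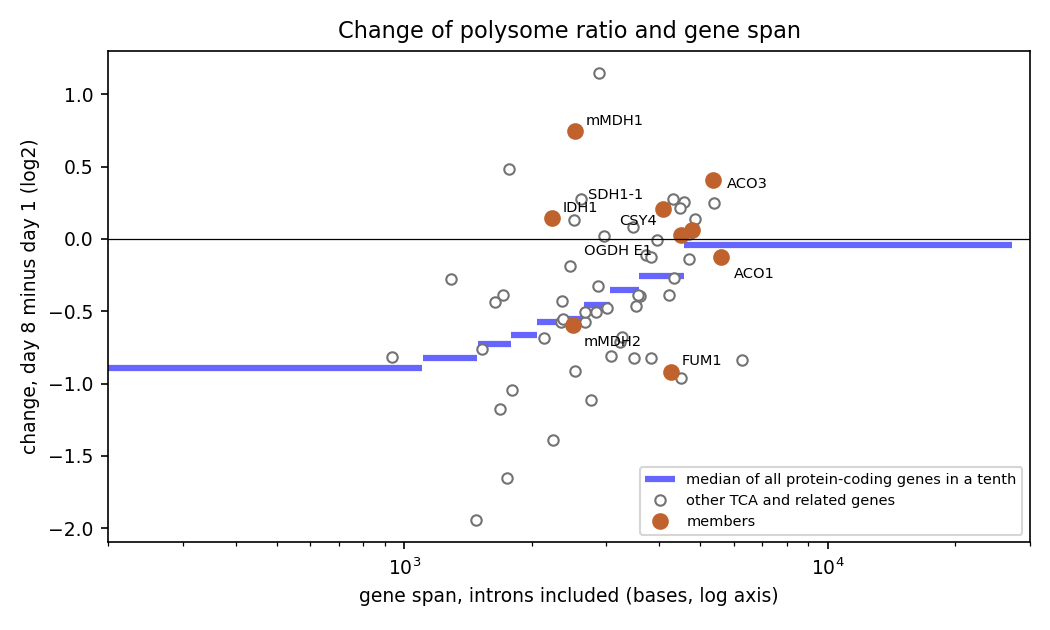
Change of the polysome ratio (vertical axis, log2) against gene span (horizontal axis, bases, log scale), with filled points for the 9 genes, open points for the 50 further pathway genes and bars at the median of all protein-coding genes in each decile of span. The bars climb from -0.89 in the shortest decile to -0.04 in the longest, and mMDH1 and mMDH2, of nearly equal span (2532 and 2509 bases), lie at 0.74 and -0.60.

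Of the neighbouring pathways, cytosolic glycolysis feeds pyruvate to the mitochondrion and the respiratory chain takes the electrons. Over 24 measured glycolytic genes the median was 39.2% on day 1 and 34.9% on day 8, with a median change of -0.22. As deposited 17 of 24 were lower (70.8%, beside 81.3% of all genes), and with 0 at the median spike-in 9 were lower (63.6% of all genes). Over 45 nuclear genes of complexes I, III, IV and V the median was 35.3% and 17.0%, with a median change of -0.9999. As deposited 43 of 45 were lower (95.6%), and with 0 at the median spike-in 39 were lower. In the latter list 22 genes were at least 2-fold lower, beside 0 of the 9 TCA genes and 25.7% of all genes. The pyruvate kinase family gene AT5G56350 had the highest change of the glycolysis list, with 40.0% and 59.8% (0.58), GAPC2, which oxidises glyceraldehyde 3-phosphate in the cytosol, had the lowest (-1.05), and the phosphofructokinase family gene AT1G20950 lay nearest the median (-0.21). Of the respiratory list, AT1G79010, annotated as an alpha-helical ferredoxin, was highest at 0.61, AT4G37830, related to cytochrome c oxidase, was lowest at -2.46, and AT3G62400, with no function in the file, lay nearest the median with 28.4% and 14.22%. SDH1-1 at 0.21 lay above 43 of these 45 genes. Of the 9 TCA members, 6 fall in the longest 2 deciles of gene span, beside 6 of 24 glycolytic and 3 of 45 respiratory genes, so length goes with the lists as well. The change exceeded the median of the same decile in 18 of 24 glycolytic and 10 of 45 respiratory genes. It did so in 6 of 9 members and 49.1% of all genes. The part of length in the differences between lists was not tested.

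**Figure D4:**
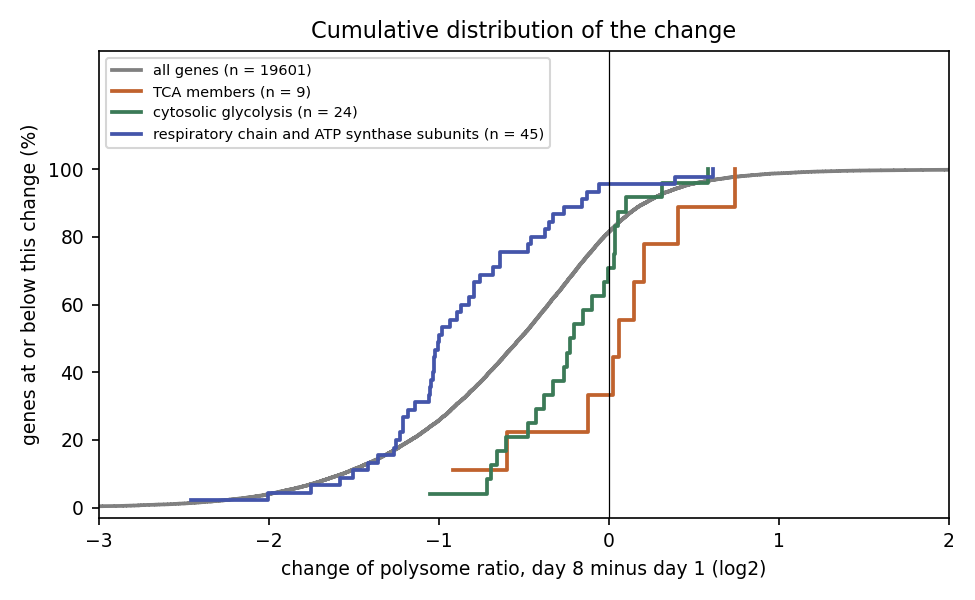
Cumulative share of genes (vertical axis, percent) at or below a given change of the polysome ratio (horizontal axis, log2), for all genes, the 9 TCA genes, 24 glycolytic genes and 45 subunit genes of complexes I, III, IV and V. The curves cross the middle at -0.52, 0.06, -0.22 and -0.9999 in that order, and each rests on 1 array a day.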

How the data were processed

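Polysomal and total RNA of T87 cells were compared on 1 array with 2 channels for each of 2 days. Per the labels' protocols, cRNA was made from an oligo(dT) primer by T7 amplification and carried Cy5 or Cy3. The deposited values are the authors' log10 ratios for 39102 features; the steps from scanner signals to ratios are not given in the sources used here. The deposited value table holds the same numbers (largest difference 0). All columns with values of a sample were used.

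The log10 values were converted to log2 and to percent with Python 3.11.15, numpy 2.4.6, pandas 2.3.3 and scipy 1.17.1. For each array, a surface of the value without signal was taken as the median of 30 neighbouring features whose values were no more than 0.04 from the negative controls' median, and features within 0.006 of it were left out, 25.7% of gene features on day 1 and 27.0% on day 8. The rule was tested on simulated arrays only. In these, values without signal lay close to a smooth surface, and values with signal were drawn from features the rule had kept. That setting favours the rule, so the test cannot show how well it works on the real arrays. Spots and then probes of a locus were averaged on the log scale. Probes naming several loci (256) or none that could be assigned (11095) were not used. Symbols and spans come from the RefSeq table of assembly TAIR10.1, and since the array's build is not known no coordinates are given. A planned comparison of protein lengths and sequences was not made, and gene span, chosen after the data had been seen, took its place.

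The number of arrays limits the precision. The SD between probes of 1 gene (541 genes) and between repeated spots (22 probes, median SD 0.03 and 0.02) describes error within an array only. The members and lists were chosen with earlier results of these data known. Of the 10 loci of the rule, 1 is not reported here and was left out of the counts over the members and of the lists; the other 9 are named, with any pathway gene measured on both days and, of the lists compared, the highest, the lowest and the gene nearest the median. Alternatives covered the treatment of features without signal, the position of 0, averaging, genes above 100%, the value table and the denominator.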

Additional observations from a re-analysis of the deposited data

How the results depend on the processing

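Each member rests on 1 feature, so keeping features without signal, a wider or narrower tolerance, medians in place of means, leaving out genes above 100% and the series value table changed no value of a member. They changed the reference. With features without signal kept, the median change of all genes was -0.67, and 8 of 9 members lay above it in place of 7, the added one being mMDH2. The further pathway genes lower on day 8 numbered 37 to 42 under these settings, and their median change ran from -0.45 to -0.41. The position of 0 mattered by construction, since it shifts every change alike. With 0 at the median spike-in, the median change of the members was 0.36, 1 member (mMDH1) was past 2-fold and ACO1 was 0.18. With 0 at the median gene, the median was 0.58, 1 member (mMDH1) was past 2-fold and ACO1 was 0.40. Under both, 2 members were lower in place of 3. A denominator of nonpolysomal RNA was tried after the data had been seen, with each ratio converted to a share of both pools. Members then lay between 25.0% and 29.95% on day 1 and between 18.4% and 35.8% on day 8, with a median change of 0.04 and 3 members lower. No paired analysis was possible because each day has 1 array. Signal over background was not used here, so which values rest on dim features was not tested.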
